A study of Mus musculus with 12 samples.

Results

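Liver macrophages of mice given diethylnitrosamine (DEN) were compared with liver macrophages of untreated mice across all measured genes. The 2 arrays titled as macrophages of DEN-treated wild-type mice and the 2 titled as macrophages of untreated wild-type mice were taken, 4 of the 12 arrays in the series. The DEN macrophages came from male C57Bl/6 mice injected into the peritoneum with DEN at 25 mg/kg when 25 days old, and tumours were followed over the next 9 months. The untreated macrophages came from male C57Bl/6 mice of the same age with no treatment given in the labels, and all groups were labelled WT. Per the series' design text, RNA of each cell type was pooled from 3 to 4 DEN-treated mice. Neither how macrophages were separated from other liver cells nor whether a tumour was removed first is given in the sources used here. Hepatocytes and sinusoidal endothelial cells (SEC), the lining of the liver's capillaries, were measured in the same way, with 2 DEN and 2 untreated arrays each, and were used only for comparison.

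DEN is a carcinogen that hepatocytes convert into a DNA-damaging product, and a single dose in young mice is followed by liver tumours in adult life. Most macrophages of a healthy liver are Kupffer cells, which sit in the sinusoids, take up bacteria, aged red cells and complement-coated particles, and keep their number by local division. Their identity depends on the nuclear receptor LXR-alpha (Nr1h3) and on signals from endothelial and stellate cells. Monocytes, neutrophils and other leukocytes enter the liver from blood during injury and inflammation.

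Values are levels on the deposited log2 scale, and changes are differences of these levels, DEN minus untreated, ± SE from a model of all 6 groups with n = 2 arrays per group. A level near 7.43, the level that 95% of the 1501 probes of olfactory and vomeronasal receptor genes stay under on the macrophage arrays, counts as background. On the DEN macrophage arrays 20239 and 20354 probes lay above it, against 20364 and 20294 on the untreated ones. Replicates correlated across genes at r = 0.997 in DEN macrophages and at r = 0.998 in untreated macrophages. Of 19053 genes named on the array 12462 passed the background filter in at least 1 of the 6 groups and were tested. Whether replicate arrays stand for separate pools of mice is not given in the labels, and p-values therefore measure the spread between arrays alone, which may be technical.

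The macrophage label was checked against markers. Genes made by most macrophages and monocytes were abundant in both groups, although Lyz2 and Laptm5 are shared with other leukocytes. The lysozyme gene Lyz2 had means of 13.85 in DEN macrophages and 13.99 in untreated macrophages over 2 arrays each. Laptm5, a lysosomal membrane protein of blood cells chosen for this check after its values were seen, had 14.78 and 14.88 in DEN macrophages, against 14.84 and 14.83 in untreated macrophages. Markers of mature tissue macrophages were lower in the DEN preparation. The F4/80 gene Adgre1 had 11.48 and 11.59 in DEN macrophages, against 13.92 and 13.88 in untreated macrophages, and it reached 12.41 and 12.36 on the DEN SEC arrays and averaged 12.05 on the 2 DEN hepatocyte arrays. Csf1r, the receptor for the macrophage growth factor CSF1 and also chosen after its values were seen, had 11.37 and 11.65 in DEN macrophages, against 14.37 and 14.28 in untreated macrophages. The Kupffer cell markers summed to 8873 and 9003 on the DEN macrophage arrays, against 156198 and 157406 on the untreated macrophage arrays, as linear signal (2 to the power of each log2 value). On the DEN SEC arrays they summed to 82790 and 83686 and on the DEN hepatocyte arrays to 11585 and 11949. The DEN macrophage arrays therefore carried leukocyte transcripts with less Kupffer cell signal than the DEN SEC arrays. Against the DEN hepatocyte arrays the sum was slightly lower, but single markers differed in direction. Mean Clec4f was 9.02 in DEN macrophages and 8.35 in DEN hepatocytes, Vsig4 10.15 and 10.11, and Fcna 10.62 and 11.92. The name "DEN macrophages" is used below for the preparation. The untreated macrophages also held transcripts of other cells, among them the T cell receptor chain Cd3e at 10.27 and 10.29 and the hepatocyte-made urinary protein Mup2 at 13.59 and 13.52.

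A large share of the transcriptome differed between the preparations. Of 12462 genes 5353 passed at an adjusted p of 0.05 (limma with Benjamini-Hochberg adjustment), which is 43.0%. Higher in DEN macrophages were 2323 genes (18.6%) and lower 3030 genes (24.3%). The counts of every list below are to be read beside these shares. DEN and untreated arrays did not overlap in each of the 5353, and this held for 74.8% of all genes tested. At least 2-fold higher were 359 genes (2.88%) and at least 2-fold lower 464 genes (3.72%). Over all genes tested the median change was -0.02 and the median size of a change 0.14. When array background was subtracted before the fit, 16 of the genes named below lost their call, namely Batf3, Cd274, Gbp2, H2-Aa, H2-DMb2, H2-Q7, Havcr2, Hba-a1, Hbb-bs, Hspa8, Icam1, Rela, Spi1, Tgfb1, Tlr2 and Zeb2. Of these, Gbp2, H2-Aa, H2-DMb2, H2-Q7, Icam1 and Rela also lost it without 1 of the macrophage arrays. An exact permutation test of 2 against 2 arrays for a single gene cannot go below p = 0.333, so the calls rest on the spread shared across genes and groups.

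The gene that rose most was Cxcl2, a chemokine that draws neutrophils. Cxcl2 had 13.94 and 13.83 in DEN macrophages, against 7.72 and 7.82 in untreated macrophages, a 69.4-fold difference (6.12 ± 0.06, adjusted p = 4.96e-13). The DEN arrays stood far above the untreated ones. The serum amyloid gene Saa3, which macrophages make in inflammation, had 12.84 and 12.74 in DEN macrophages, against 7.64 and 7.59 in untreated macrophages (5.17 ± 0.05). Saa3 was higher still on the DEN hepatocyte arrays, with 14.32 and 14.34, against 8.25 and 8.16 in untreated hepatocytes. The cytokine Osm of the interleukin-6 family had 12.65 and 12.56 in DEN macrophages, against 7.63 and 7.65 in untreated macrophages (4.96 ± 0.05), and its other probe changed by 1.78. All 3 genes were close to background on both untreated macrophage arrays and high on both DEN macrophage arrays.

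The gene that fell most was Clec4f, a lectin that in mice marks Kupffer cells. Clec4f had 8.96 and 9.07 in DEN macrophages, against 14.27 and 14.39 in untreated macrophages, a 39.8-fold difference (-5.32 ± 0.07, adjusted p = 1.01e-12). The haemoglobin scavenger receptor Cd163 had 8.17 and 8.50 in DEN macrophages, against 13.62 and 13.48 in untreated macrophages (-5.21 ± 0.11), and its other kept probe changed by -0.99. Vsig4, a receptor that captures complement-coated bacteria, had 10.14 and 10.15 in DEN macrophages, against 15.11 and 15.19 in untreated macrophages (-5.00 ± 0.06), with the untreated arrays at the top of the array's range, which limits the size of its change. In these genes the untreated arrays were the high ones, and the DEN arrays stayed above background.

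**Figure D1:**
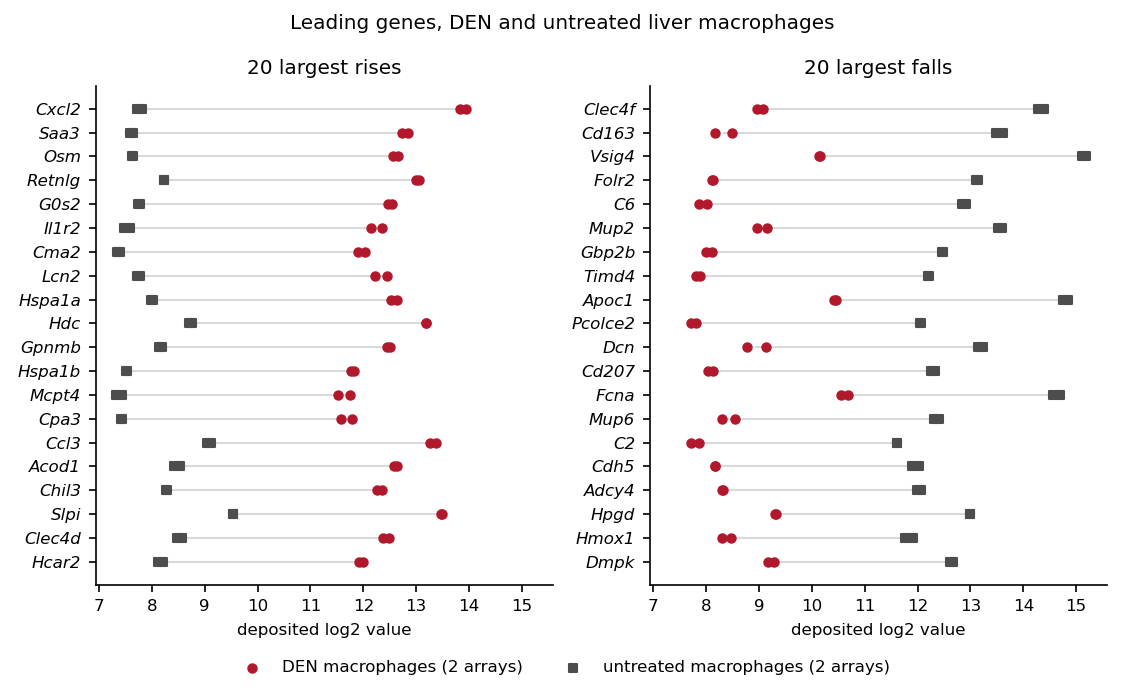
Levels on the deposited log2 scale (x axis) of the 20 genes that rose most and the 20 that fell most and were above background in the higher group, on the 2 DEN macrophage arrays (circles) and the 2 untreated macrophage arrays (squares), with a line between the group means. Replicates lie close together and the groups do not overlap, as for Cxcl2 with 13.94 and 13.83 in DEN macrophages, against 7.72 and 7.82 in untreated macrophages.

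The other large rises included the lipolysis inhibitor G0s2 (4.75 ± 0.10), the nicotinic acid receptor Hcar2 (3.79 ± 0.07), the itaconate-forming enzyme Acod1 (4.13 ± 0.07), the chemokine Ccl3 (4.23 ± 0.06), the protease inhibitor Slpi (3.95 ± 0.06), the lectin receptor Clec4d (3.91 ± 0.08) and the transmembrane glycoprotein Gpnmb (4.30 ± 0.07). The 3 probes of Gpnmb disagreed in size, from 0.38 to 4.30. The other large falls included the folate receptor Folr2 (-4.99 ± 0.07), the complement component C6 (-4.95 ± 0.10), the phosphatidylserine receptor Timd4 (-4.36 ± 0.08), the lectin Cd207 (-4.21 ± 0.07), the prostaglandin-degrading enzyme Hpgd (-3.67 ± 0.10), the kinase Dmpk (-3.41 ± 0.05) and the adenylyl cyclase Adcy4 (-3.71 ± 0.08). Probes disagreed in size for Dmpk, with -0.22 for the other, and for Adcy4, with changes up to -1.41. The endothelial cadherin Cdh5 (-3.78 ± 0.09) and the hepatocyte genes Mup2 (-4.49 ± 0.08) and Mup6 (-3.93 ± 0.09) fell in the same arrays. The Mup genes are near-identical copies, so their probes cannot be told apart with certainty.

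Kupffer cell markers fell without exception. All 14 measured markers passed as lower, with a median change of -4.15 against -0.02 over all genes, and 2 further markers could not be measured. The median level of the markers was 8.07 and 8.09 in DEN macrophages, against 12.53 and 12.56 in untreated macrophages. Folr2 had 8.13 and 8.12 in DEN macrophages, against 13.14 and 13.10 in untreated macrophages. Timd4 had 7.88 and 7.82 in DEN macrophages, against 12.20 and 12.21 in untreated macrophages. In both genes the DEN arrays were little above background. The ficolin Fcna, which binds bacterial sugars, had 10.68 and 10.56 in DEN macrophages, against 14.57 and 14.70 in untreated macrophages (-4.02 ± 0.06). The scavenger receptor Marco had 8.01 and 8.06 in DEN macrophages, against 10.89 and 10.92 in untreated macrophages (-2.87 ± 0.08). The podoplanin receptor Clec1b (-2.23 ± 0.09), the interleukin-18 inhibitor Il18bp (-2.37 ± 0.11) and the potassium channel Kcna2 (-1.19 ± 0.06) fell less. In RNA from bulk preparations, fewer Kupffer cells and less of these transcripts per cell cannot be told apart.

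The bases before the start of Clec4f and Vsig4 are shown because these genes were among the largest of the falls that the Kupffer cell markers shared. PU.1, a factor of the ETS family, is needed by all macrophages and binds DNA around the core GGAA. The sequences are those of RefSeq, build GRCm38.p6, minus strand, chr6:83656117-83656366 for Clec4f and chrX:96293439-96293688 for Vsig4, the 250 bases before the start of each, and capitals mark GGAAGT on either strand.
Clec4f: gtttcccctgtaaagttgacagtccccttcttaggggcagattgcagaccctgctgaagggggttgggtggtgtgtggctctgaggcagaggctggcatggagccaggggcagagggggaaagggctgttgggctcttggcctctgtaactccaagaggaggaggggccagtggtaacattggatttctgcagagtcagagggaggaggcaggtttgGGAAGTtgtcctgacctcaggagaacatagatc
Vsig4: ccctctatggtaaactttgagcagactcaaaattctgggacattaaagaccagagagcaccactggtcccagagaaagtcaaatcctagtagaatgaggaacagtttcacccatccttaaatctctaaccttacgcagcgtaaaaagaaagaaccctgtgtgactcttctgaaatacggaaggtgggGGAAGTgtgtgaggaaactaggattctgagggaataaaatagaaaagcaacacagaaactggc
Each held 1 match, and at least 1 was found in 19.7% of 32851 promoter sequences of the same length over the 250 bases searched. Among the promoter sequences of measured genes the share was 22.5%. Of the 14 Kupffer cell markers with a promoter there, 7 held it, Clec4f and Vsig4 among them. Cd163, which fell more than Vsig4 and is not shown, was not among the 7. The gene for PU.1, Spi1, had 8.69 and 8.71 in DEN macrophages, against 9.43 and 9.43 in untreated macrophages (-0.73 ± 0.08).

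Most transcription factors of Kupffer cells fell. Of 19 measured, 11 passed as lower and 4 as higher (median -0.42), against 24.3% and 18.6% of all genes. Nr1h3, the LXR-alpha gene, had 9.58 and 9.66 in DEN macrophages, against 12.49 and 12.52 in untreated macrophages (-2.89 ± 0.08). Spic, a factor of haem-handling macrophages, had 9.16 and 9.09 in DEN macrophages, against 10.68 and 10.75 in untreated macrophages (-1.59 ± 0.07). Id3, which mouse Kupffer cells need to develop, had 8.49 and 8.58 in DEN macrophages, against 10.06 and 10.15 in untreated macrophages (-1.57 ± 0.10). Irf7 (-1.51), Tfec (-1.26) and Id1 (-0.90) also fell, and so did Maf by a small amount (-0.32). The probes of Zeb2 passed in both directions. The 4 that rose were the stress-responsive factor Atf3 (2.80), Bhlhe40 (1.28), Cebpb (0.94) and Klf4 (0.91).

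Most genes that LXR is known to switch on or that serve cholesterol efflux fell. Of 18 measured, 12 fell and 2 rose (median -0.64). The apolipoprotein gene Apoc1 had 10.45 and 10.43 in DEN macrophages, against 14.75 and 14.84 in untreated macrophages (-4.36 ± 0.11), and its neighbour Apoc2 went the other way with 9.31 and 9.19 in DEN macrophages, against 8.06 and 8.11 in untreated macrophages (1.16 ± 0.05). Apoe (-1.22), the phospholipid transfer protein Pltp (-2.11), lysosomal acid lipase Lipa (-1.98) and lipoprotein lipase Lpl (-1.59) fell. The cholesterol exporter Abcg1 fell (-0.94), while its partner Abca1 was at -0.18 ± 0.07 (adjusted p = 0.056) and did not pass.

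Receptors for dying cells, modified lipoproteins and complement-coated particles mostly fell. Of 24 scavenger and efferocytosis receptors, a list that shares Cd163, Marco and Timd4 with the Kupffer cell markers, 14 fell and 6 rose (median -0.60). The mannose receptor Mrc1, which SEC also make, had 10.02 and 10.10 in DEN macrophages, against 12.95 and 12.96 in untreated macrophages (-2.90 ± 0.06). The receptor kinases Mertk (-2.64) and Axl (-2.12) and their ligand Pros1 (-1.42) fell. The C-type lectins Clec4d and Clec4e stood out on the other side. Clec4e, the receptor Mincle for mycobacterial glycolipid and dead cells, had 10.70 and 10.59 in DEN macrophages, against 7.55 and 7.57 in untreated macrophages (3.08 ± 0.06). Of 18 complement genes, a list that shares Vsig4 and C6 with the Kupffer cell markers, 11 fell and 3 rose (median -1.44). The C1q chains C1qa (-2.63), C1qb (-2.07) and C1qc (-2.60) fell together, as did C2 (-3.82) and C4b (-1.95). The integrin chain Itgax (0.93) rose.

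Fc receptors split by type. Of 8 measured, 5 fell and 3 rose. The neonatal receptor Fcgrt had 11.03 and 11.02 in DEN macrophages, against 12.98 and 13.02 in untreated macrophages (-1.97 ± 0.05). The activating receptors Fcgr4 (-1.71), Fcgr1 (-1.42) and Fcgr3 (-1.19) and their shared chain Fcer1g (-0.96) fell. The inhibitory receptor Fcgr2b, which SEC make too, had 11.50 and 11.36 in DEN macrophages, against 10.51 and 10.40 in untreated macrophages (0.98 ± 0.10), the opposite direction.

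Most genes of iron and haem handling, used in recycling aged red cells, fell. Of 20 measured genes 13 fell and 3 rose (median -0.82), and 3 of those that fell are also Kupffer cell markers. Haem oxygenase Hmox1 had 8.30 and 8.47 in DEN macrophages, against 11.91 and 11.77 in untreated macrophages (-3.46 ± 0.08). The iron exporter Slc40a1 had 11.63 and 11.66 in DEN macrophages, against 14.89 and 14.72 in untreated macrophages (-3.16 ± 0.07). The haem transporter Slc48a1 (-2.26), biliverdin reductase Blvrb (-2.08) and the phagosomal metal transporter Slc11a1 (-1.30) fell as well. The 3 that rose were the haemoglobin binder Hp (2.53), the siderophore binder Lcn2 (4.59), which neutrophils also make, and ferritin heavy chain Fth1 (0.31).

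Lysosomal genes fell broadly and by smaller amounts. Of 31 measured genes 21 fell and 0 rose (median -0.56). The protective protein Ctsa had 10.62 and 10.63 in DEN macrophages, against 12.80 and 12.98 in untreated macrophages (-2.27 ± 0.09). Legumain, Lgmn (-1.88), cathepsin C, Ctsc (-1.88), and acid ceramidase, Asah1 (-1.45), fell more than the pump subunits Atp6v1a (-0.69) and Atp6v1h (-0.40). Ctsb was at 0.06 ± 0.08 and Ctsl at -0.08 ± 0.09, and neither passed. The probes of Lamp2 passed in both directions.

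Markers of other blood cells rose in the DEN preparation, and the neutrophil list had the highest median change. Of 24 neutrophil markers 23 rose and 0 fell (median 2.17), and Fpr2 (-0.11 ± 0.06) did not pass. Their summed signal was 85209 and 73782 on the DEN macrophage arrays, against 16759 and 16752 on the untreated macrophage arrays. Retnlg, a resistin-like protein of neutrophils, had means of 13.03 in DEN macrophages and 8.23 in untreated macrophages over 2 arrays each (4.80 ± 0.05). Il1r2, the decoy receptor for interleukin-1, had 12.15 and 12.35 in DEN macrophages, against 7.58 and 7.48 in untreated macrophages (4.72 ± 0.09). Lactoferrin, Ltf, had 11.44 and 11.29 in DEN macrophages, against 7.57 and 7.62 in untreated macrophages (3.77 ± 0.07), and cathelicidin, Camp, had 11.29 and 11.13 in DEN macrophages, against 7.64 and 7.66 in untreated macrophages (3.56 ± 0.07). Both untreated arrays already held S100a9 at 11.35 and 11.30, against 14.32 and 13.80 on the DEN arrays. The granule genes Mpo, Elane and Ctsg were lower in absolute level on the DEN arrays than Ltf and Camp. Mpo had 9.98 and 9.79 in DEN macrophages, against 7.43 and 7.42 in untreated macrophages, Elane had 8.23 and 8.07 in DEN macrophages, against 7.42 and 7.42 in untreated macrophages and Ctsg had 8.31 and 8.13 in DEN macrophages, against 7.34 and 7.38 in untreated macrophages. Of the 24 markers 8 lay below background on both untreated arrays and none on both DEN arrays.

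Monocyte markers rose in 14 of 16 cases (median 1.20), with a summed signal of 46741 and 48043 on the DEN macrophage arrays, against 31676 and 30849 on the untreated macrophage arrays. Chil3, a chitinase-like protein of inflammatory monocytes and neutrophils, had 12.35 and 12.26 in DEN macrophages, against 8.26 and 8.29 in untreated macrophages (4.03 ± 0.06). Fibronectin, Fn1, had 10.30 and 10.13 in DEN macrophages, against 7.81 and 7.87 in untreated macrophages (2.37 ± 0.07). S100a4 (2.14), S100a6 (2.08) and coagulation factor X, F10 (2.01), rose. The receptors that guide monocytes rose less, with Ccr2 at 8.56 and 8.56 in DEN macrophages, against 7.77 and 7.75 in untreated macrophages (0.80 ± 0.05) and Cx3cr1 at 9.30 and 9.36 in DEN macrophages, against 8.03 and 7.97 in untreated macrophages (1.33 ± 0.05). Plac8 (0.10 ± 0.06) and Lyz2 (-0.15 ± 0.07) did not pass.

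Most mast cell and basophil genes were higher in DEN macrophages, several of them from background. The carboxypeptidase Cpa3 had 11.79 and 11.57 in DEN macrophages, against 7.43 and 7.41 in untreated macrophages (4.26 ± 0.08). The chymase Mcpt4 had 11.75 and 11.53 in DEN macrophages, against 7.33 and 7.43 in untreated macrophages (4.26 ± 0.07), and the chymase-like Cma2 had 12.03 and 11.89 in DEN macrophages, against 7.39 and 7.35 in untreated macrophages, at least 23.1-fold higher since both untreated arrays lay below background. Cma1 (3.25), the tryptases Tpsb2 (1.91) and Tpsab1 (1.04), the IgE receptor chain Fcer1a (2.41) and the stem cell factor receptor Kit (0.86) also rose. Hdc, which forms histamine, had 13.19 and 13.19 in DEN macrophages, against 8.71 and 8.76 in untreated macrophages (4.46 ± 0.05), and was abundant on the SEC arrays too, with 12.18 and 12.21 in DEN SEC and 12.35 and 12.29 in untreated SEC. The basophil proteases Mcpt8 (0.16 ± 0.09) and Prss34 (0.13 ± 0.11) did not pass. Over the list 11 of 15 rose and 1 fell, the summed signal was 26443 and 24397 on the DEN macrophage arrays, against 3271 and 3244 on the untreated macrophage arrays, and 6 members lay below background on both untreated arrays.

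Lymphocyte markers were already above background in untreated macrophages and rose in DEN macrophages. Of 13 T and NK cell markers 9 rose and 0 fell (median 1.27), with a summed signal of 59044 and 60409 on the DEN macrophage arrays, against 17999 and 18527 on the untreated macrophage arrays. Cd3e had 11.54 and 11.57 in DEN macrophages, against 10.27 and 10.29 in untreated macrophages (1.27 ± 0.05). Nkg7, a granule protein of cytotoxic cells, had 12.74 and 12.75 in DEN macrophages, against 10.79 and 10.85 in untreated macrophages (1.93 ± 0.06). Cd8b1 had 12.63 and 12.59 in DEN macrophages, against 9.87 and 9.83 in untreated macrophages (2.76 ± 0.05), although its probes passed in both directions. Cd4 (0.02 ± 0.05) and the NK receptors Ncr1 (0.12 ± 0.05) and Klrb1c (0.14 ± 0.07) did not pass. All 10 measured B and plasma cell markers rose (median 0.85), among them Mzb1 (2.31), Pou2af1 (1.80) and Cd79b (1.28), and they summed to 12168 and 11933 on the DEN macrophage arrays, against 4868 and 4868 on the untreated macrophage arrays. The eosinophil granule gene Prg2 rose (3.12 ± 0.05), while the eosinophil receptors Ccr3 (-0.01 ± 0.05) and Il5ra (0.07 ± 0.05) did not pass. Dendritic cell markers divided, with 5 of 12 higher, such as Ccr7 (0.88), and 2 lower, Batf3 (-1.02) and Bst2 (-0.99).

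Markers of the liver's own non-macrophage cells fell or stayed low. Of 18 SEC markers 12 fell and 1 rose (median -1.17), with a summed signal of 12087 and 12030 on the DEN macrophage arrays, against 31968 and 31982 on the untreated macrophage arrays. The hyaluronan receptor Stab2 had 8.39 and 8.50 in DEN macrophages, against 10.87 and 10.66 in untreated macrophages (-2.32 ± 0.08). Of 17 stellate cell and fibroblast markers 11 fell and 1 rose, and the sum was 4605 and 4396 on the DEN macrophage arrays, against 19739 and 19081 on the untreated macrophage arrays. Decorin, Dcn, had 9.13 and 8.78 in DEN macrophages, against 13.24 and 13.14 in untreated macrophages (-4.24 ± 0.13), with its 4 probes between -4.24 and -0.12. The defining stellate genes Lrat and Col1a1 were near background in both groups. Of 19 hepatocyte markers 8 fell and 0 rose, and the sum was 10087 and 9753 on the DEN macrophage arrays, against 33472 and 30976 on the untreated macrophage arrays. Transferrin, Trf, fell (-2.02 ± 0.10). Of 8 cholangiocyte markers 1 passed, Tspan8 (0.27). Globins were abundant in both groups, with Hba-a1 at 13.36 and 13.23 in DEN macrophages, against 12.60 and 12.55 in untreated macrophages (0.72 ± 0.10). The part of these shifts in cell markers in the changes of other genes was not tested.

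**Figure D2:**
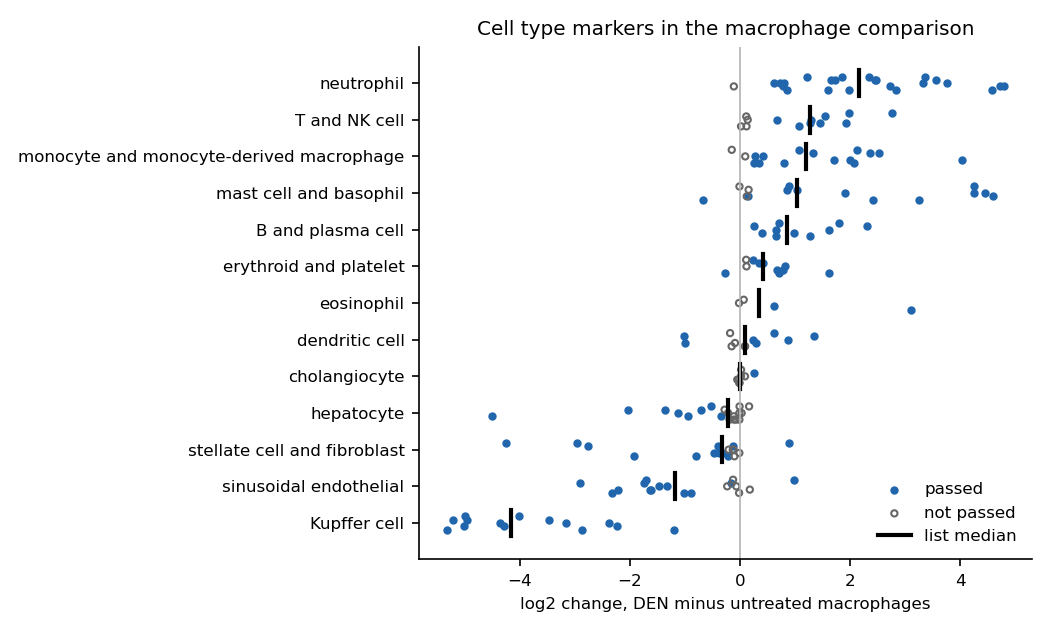
Log2 change, DEN minus untreated macrophages (x axis), of each measured marker of 13 cell types (rows, ordered by median), with filled points for genes that passed at an adjusted p of 0.05, open points for the others, and a bar at the list median. The Kupffer cell list lies at -5.32 to -1.19 and the neutrophil list at -0.11 to 4.80.

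Chemokines that recruit neutrophils and monocytes rose, while Cxcl12, Cxcl13 and Ccl24 fell. The neutrophil chemokine Cxcl1 had 9.72 and 9.62 in DEN macrophages, against 7.44 and 7.43 in untreated macrophages (2.23 ± 0.06), beside Cxcl2 above. Ccl3 had 13.37 and 13.26 in DEN macrophages, against 9.05 and 9.11 in untreated macrophages, and Ccl4, made by the same cells, had 14.02 and 14.10 in DEN macrophages, against 10.34 and 10.40 in untreated macrophages (3.69 ± 0.06). Of 16 CC chemokines 9 rose and 2 fell. Ccl9 (2.57), the monocyte chemokine Ccl7 (2.07) and Ccl8 (1.94) rose, and Ccl2 by less (0.71). The eosinophil chemokine Ccl24, by contrast, had 8.14 and 8.15 in DEN macrophages, against 11.30 and 11.26 in untreated macrophages (-3.14 ± 0.06). Among 11 CXC chemokines 5 rose and 4 fell. The 5 include Pf4 (1.62) and Ppbp (0.68), also on the erythroid and platelet marker list, where 8 of 11 rose and 1 fell. Cxcl12, which holds leukocytes in tissue, had 7.57 and 7.51 in DEN macrophages, against 10.80 and 10.92 in untreated macrophages (-3.32 ± 0.10), and the B cell chemokine Cxcl13 had 8.82 and 8.65 in DEN macrophages, against 11.63 and 11.68 in untreated macrophages (-2.92 ± 0.10). The interferon-induced chemokine Cxcl9 was at -0.15 ± 0.09 and did not pass.

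The bases before Cxcl2 and Cxcl1 are shown because Cxcl2 rose most of all genes and Cxcl1 is its neighbour and close relative. NF-kB, the factor that Toll-like receptors and cytokines activate, binds sites that begin with GGG and end with CC. The sequences are from RefSeq, build GRCm38.p6, plus strand, chr5:90903649-90903898 for Cxcl2 and chr5:90890995-90891244 for Cxcl1, and capitals mark GGGANNNNCC on either strand, where matches may overlap.
Cxcl2: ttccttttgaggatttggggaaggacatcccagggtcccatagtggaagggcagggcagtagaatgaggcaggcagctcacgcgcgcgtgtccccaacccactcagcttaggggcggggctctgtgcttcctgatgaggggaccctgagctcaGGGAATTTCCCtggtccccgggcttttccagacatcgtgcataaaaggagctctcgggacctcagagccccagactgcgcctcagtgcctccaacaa
Cxcl1: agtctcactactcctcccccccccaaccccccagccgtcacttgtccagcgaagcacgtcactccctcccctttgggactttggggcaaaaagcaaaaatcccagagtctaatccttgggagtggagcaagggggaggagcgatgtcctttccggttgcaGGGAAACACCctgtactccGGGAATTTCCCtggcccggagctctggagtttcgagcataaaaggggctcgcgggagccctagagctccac
In Cxcl2 the matches on the opposite strands overlapped at GGGAATTTCCC, between 97 and 87 bases before the start. Cxcl1 held the same stretch between 71 and 61 bases before its start, and 1 more match at 90 bases. The motif was found in 17.6% of all 32851 promoter sequences over these 250 bases and in 21.9% of those of measured genes. It was found in 10 of the 21 genes of the NF-kB list that had a sequence, measured or not.

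Receptors for chemokines rose in 10 of 15 cases and fell in 1. Ccrl2, a non-signalling receptor for chemerin, had 11.92 and 11.99 in DEN macrophages, against 8.27 and 8.19 in untreated macrophages (3.72 ± 0.07). Cxcr4, the receptor of Cxcl12, had 11.45 and 11.56 in DEN macrophages, against 8.21 and 8.29 in untreated macrophages (3.26 ± 0.09), the opposite direction to its ligand. Cxcr2, the receptor of Cxcl1 and Cxcl2 on neutrophils and a member of the neutrophil marker list, had 8.99 and 9.25 in DEN macrophages, against 7.52 and 7.52 in untreated macrophages (1.60 ± 0.14). Ccr6 (1.28) and Cxcr5 (1.04), known from B cells, rose with the B cell markers.

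Within the interleukin-1 system the ligand Il1b, the antagonist and the decoy receptor rose, while the other ligand, Il1a, fell (-0.58 ± 0.06). Il1b had 14.56 and 14.39 in DEN macrophages, against 11.56 and 11.52 in untreated macrophages (2.93 ± 0.10). The antagonist Il1rn had 9.85 and 9.77 in DEN macrophages, against 8.39 and 8.50 in untreated macrophages (1.37 ± 0.08). Il18 had 9.03 and 9.06 in DEN macrophages, against 10.85 and 10.75 in untreated macrophages (-1.76 ± 0.07), and its binding protein Il18bp fell with it. The inflammasome genes Pycard (-0.04 ± 0.08), Nlrc4 (-0.15 ± 0.06) and Gsdmd (0.07 ± 0.12) did not pass, and Casp1 fell slightly (-0.51). Over the list 6 of 15 rose, against 18.6% of all genes, and 4 fell, close to the 24.3% of all genes.

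Among other cytokines 13 of 29 rose, against 18.6% of all genes, with a list median of 0.05. The 7 that fell were close to the share of all genes, 24.3%. Tnf had 10.36 and 10.33 in DEN macrophages, against 8.11 and 8.10 in untreated macrophages (2.24 ± 0.07). Il6 was near background, with 7.61 and 7.73 in DEN macrophages, against 7.73 and 7.73 in untreated macrophages (-0.06 ± 0.05), and did not pass. The growth factor Csf1 (1.15) and Ifng (1.37), which T and NK cells make, rose, and Tgfb1 (-0.42) fell. The remaining members mostly moved by small amounts.

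Genes of the NF-kB pathway rose in 17 of 22 cases and fell in 3 (median 0.56), against 18.6% and 24.3% of all genes. Feedback inhibitors were among the large rises, with Ier3 (2.80), also an immediate early gene. Nfkbiz had 12.41 and 12.37 in DEN macrophages, against 9.40 and 9.42 in untreated macrophages (2.98 ± 0.09). Tnfaip3, which ends TNF receptor signalling, had 10.82 and 10.99 in DEN macrophages, against 8.54 and 8.50 in untreated macrophages (2.39 ± 0.07), and Nfkbia had 12.46 and 12.40 in DEN macrophages, against 10.48 and 10.51 in untreated macrophages (1.93 ± 0.08). The urokinase receptor Plaur (2.12) and the adaptor Traf1 (1.63) rose, and the subunits Nfkb2 (0.86), Rel (0.71) and Rela (0.22) rose by less. Icam1 (-0.28) and Sod2 (-0.39) fell.

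Genes of Toll-like receptor and endotoxin sensing, a list that also holds co-receptors, adaptors, kinases and Acod1, fell more often than they rose. Of 23 measured members 12 fell and 4 rose, against 24.3% and 18.6% of all genes. The endotoxin receptor Tlr4 had 8.25 and 8.28 in DEN macrophages, against 9.56 and 9.62 in untreated macrophages (-1.33 ± 0.06), and its partner Ly96 had 9.49 and 9.37 in DEN macrophages, against 11.02 and 10.95 in untreated macrophages (-1.56 ± 0.08). Tlr7 (-1.01) fell. Tlr2 (0.89) and Cd14 (1.44) rose, as did Acod1, which endotoxin induces.

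Immediate early genes, which respond within minutes to many stimuli, rose in 20 of 27 cases and fell in 2 (median 0.91). Gadd45b had 11.57 and 11.57 in DEN macrophages, against 8.05 and 8.06 in untreated macrophages (3.51 ± 0.05). Ier3 had 12.10 and 11.99 in DEN macrophages, against 9.30 and 9.19 in untreated macrophages (2.80 ± 0.07). Junb (2.44), the mRNA-decay factor Zfp36 (2.44), Fosb (2.21), the phosphatases Dusp2 (2.27) and Dusp1 (2.17), Egr1 (2.05) and Fos (1.99) rose together. Myc (-0.05 ± 0.07) and Ier2 (-0.01 ± 0.07) did not pass.

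Heat shock genes rose in 11 of 18 cases and fell in 1 (median 0.52), led by the inducible HSP70 genes. Hspa1a had 12.52 and 12.63 in DEN macrophages, against 8.03 and 7.98 in untreated macrophages (4.57 ± 0.06), with its 3 probes between 1.12 and 4.57. Hspa1b had 11.77 and 11.83 in DEN macrophages, against 7.53 and 7.51 in untreated macrophages (4.28 ± 0.05). The co-chaperones Dnajb1 (1.82) and Hsph1 (1.78) followed, the constitutive Hspa8 rose little (0.29), and the endoplasmic reticulum chaperone Hspa5 did not pass (-0.07 ± 0.10). Hspa1a and Hspa1b are near-identical copies, so signal may be shared between their probes.

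The bases before both HSP70 genes are shown because they rose most of the list. Heat shock factor binds repeats of GAA in alternating orientation. The sequences are from RefSeq, build GRCm38.p6, minus strand, chr17:34972157-34972406 for Hspa1a and chr17:34959239-34959488 for Hspa1b, and capitals mark GAANNTTC, which reads the same on both strands.
Hspa1a: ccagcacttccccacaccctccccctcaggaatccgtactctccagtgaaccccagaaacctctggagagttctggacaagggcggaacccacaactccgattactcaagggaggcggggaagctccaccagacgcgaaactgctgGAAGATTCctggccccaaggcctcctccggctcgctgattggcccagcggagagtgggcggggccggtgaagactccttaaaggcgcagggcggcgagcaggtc
Hspa1b: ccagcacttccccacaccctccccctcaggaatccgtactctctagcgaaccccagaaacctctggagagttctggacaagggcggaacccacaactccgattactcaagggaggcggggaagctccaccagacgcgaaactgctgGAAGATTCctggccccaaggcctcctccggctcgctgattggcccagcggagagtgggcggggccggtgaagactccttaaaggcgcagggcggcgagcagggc
The 2 sequences were identical at 247 of 250 bases, and each held 1 match, between 104 and 97 bases before the start. The motif was in 6.69% of all 32851 promoter sequences over these 250 bases and in 5.19% of those of measured genes. It was in 6 of the 15 genes of the heat shock list that had a sequence.

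Endoplasmic reticulum stress genes were mixed, with 7 of 19 higher and 3 lower. Ppp1r15a, which restarts translation after stress, had 11.26 and 11.33 in DEN macrophages, against 8.78 and 8.84 in untreated macrophages (2.48 ± 0.11), and Asns (1.01) and Atf4 (0.94) rose. The chaperone Hsp90b1 (-1.03) and the folding enzyme Pdia6 (-0.78) fell.

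Interferon-induced genes fell more often than they rose. Of 27 type I interferon genes 14 fell and 3 rose (median -0.30). Ifit3 had 10.39 and 10.15 in DEN macrophages, against 11.86 and 11.81 in untreated macrophages (-1.57 ± 0.08), and Ifit2 (-1.23), Bst2 (-0.99) and Ifitm3 (-0.88) fell, while Isg15 rose (0.93). Of 22 interferon gamma genes 10 fell, against 24.3% of all genes, and 4 rose, close to the 18.6% of all genes. The guanylate-binding gene Gbp2b had 8.01 and 8.11 in DEN macrophages, against 12.49 and 12.46 in untreated macrophages (-4.42 ± 0.06), and its relatives Gbp3 (-1.83), Gbp7 (-0.94) and Gbp2 (-0.24) fell too. Whether probes of these similar genes share signal was not tested. The GTPase Irgm2 fell (-1.64) and Irgm1 did not pass (0.17 ± 0.07).

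Genes of antigen presentation fell more often than they rose. Of 16 class II genes 9 fell and 5 rose. The chain H2-Aa had 13.70 and 13.94 in DEN macrophages, against 14.08 and 14.10 in untreated macrophages (-0.27 ± 0.10), and H2-Ab1 (-0.27 ± 0.11) and the invariant chain Cd74 (0.28 ± 0.11) did not pass. H2-Ob (1.71) and H2-Oa (1.45), the non-classical chains known from B cells, rose. The costimulatory ligand Cd86 had 10.14 and 10.17 in DEN macrophages, against 11.90 and 11.69 in untreated macrophages (-1.64 ± 0.07). Of 15 class I genes 9 fell and 0 rose (median -0.28), with Pdia3 (-1.24) and H2-D1 (-0.97) the largest. Genes of the H2 family are similar in sequence, and the probes of H2-Q7 and H2-DMb2 passed in both directions.

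Genes used as signs of alternative activation did not move as a block. Of 19 measured 11 rose and 4 fell. Arginase, Arg1, had 10.18 and 9.96 in DEN macrophages, against 8.18 and 8.14 in untreated macrophages (1.91 ± 0.09), and Chil3, Fn1 and coagulation factor XIII, F13a1 (1.72), rose, all 3 also on the monocyte list. Mrc1, Ccl24 and the growth factor Igf1 went the other way. Igf1 had 9.15 and 9.01 in DEN macrophages, against 11.46 and 11.53 in untreated macrophages (-2.42 ± 0.07). Arg2 (1.26) rose, and the inducible nitric oxide synthase gene was below background in all groups.

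Genes of lipid-associated macrophages, a state described around dying and fat-laden cells, split. Of 24 measured 12 rose and 6 fell. Cd63 had 11.71 and 11.67 in DEN macrophages, against 8.44 and 8.53 in untreated macrophages (3.20 ± 0.08), and Cd9 had 11.04 and 10.72 in DEN macrophages, against 8.52 and 8.50 in untreated macrophages (2.37 ± 0.10). The elastase Mmp12 had 10.46 and 10.72 in DEN macrophages, against 8.05 and 8.13 in untreated macrophages (2.50 ± 0.08), and the defining receptor Trem2 had 9.85 and 9.85 in DEN macrophages, against 8.93 and 8.84 in untreated macrophages (0.97 ± 0.11). Lipa, Lpl and Apoe, which this list shares with the LXR list, fell. Among 20 matrix proteases and inhibitors 11 rose and 3 fell, with Mmp13 (1.95), the neutrophil gelatinase Mmp9 (1.73) and Mmp14 (1.59) higher and the inhibitor Timp2 (-1.32) lower.

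**Figure D3:**
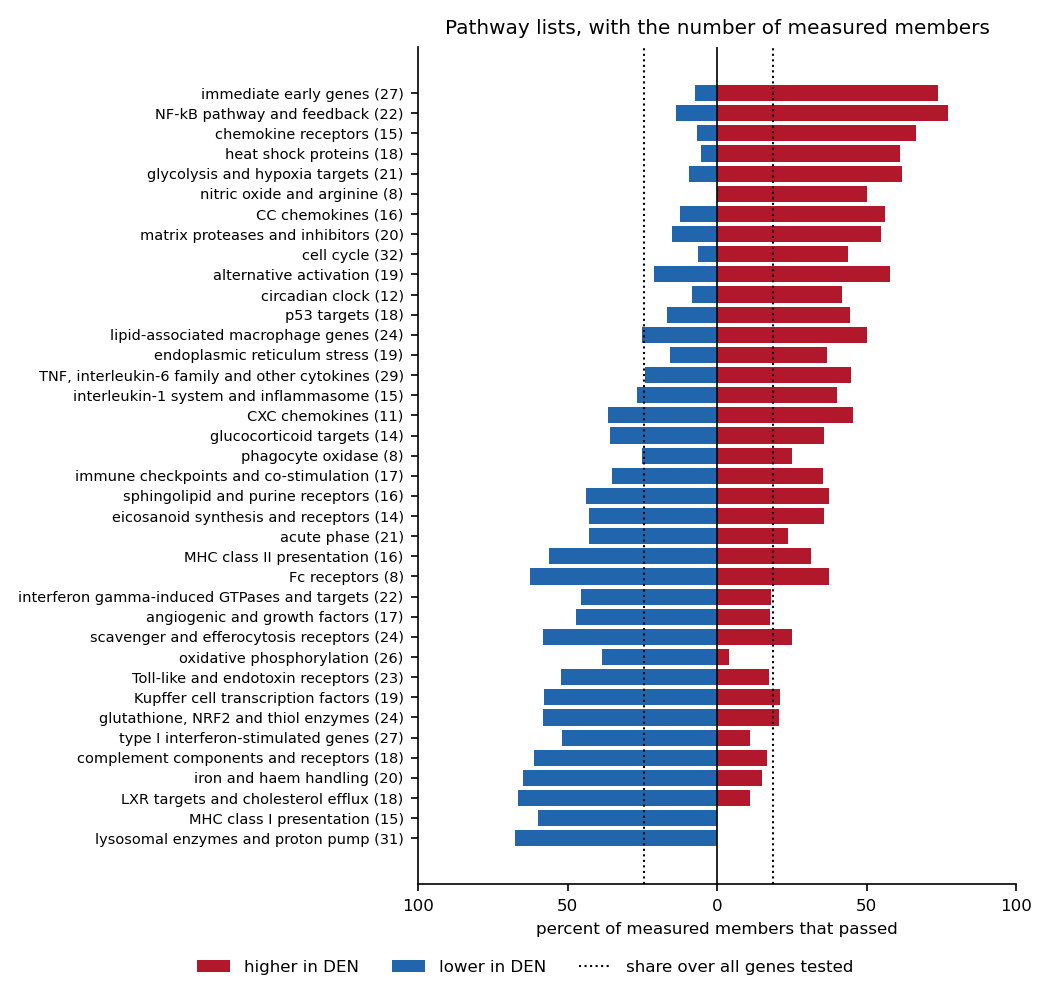
Percent of the measured members of 38 gene lists (x axis; number measured in brackets) that passed as lower (left) or higher (right) in DEN macrophages, with dotted lines at the shares over all genes tested, 24.3% lower and 18.6% higher. Lysosomal genes (21 of 31 lower) and the NF-kB pathway (17 of 22 higher) lie near opposite ends.

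Genes of prostaglandin and leukotriene metabolism were mixed. The prostaglandin synthase Ptgs2 had 8.83 and 9.26 in DEN macrophages, against 7.34 and 7.41 in untreated macrophages (1.67 ± 0.11), and the prostaglandin-degrading Hpgd had means of 9.32 in DEN macrophages and 12.99 in untreated macrophages over 2 arrays each (-3.67 ± 0.10). The thromboxane synthase Tbxas1 (-1.76) fell, and the lipoxygenases Alox15 (1.21) and Alox5 (0.79) and the leukotriene receptor Ltb4r1 (1.34) rose. Over the list 5 of 14 rose and 6 fell.

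Genes of the growth factor list, which also holds receptors, fell more often than they rose (8 and 3 of 17), against 24.3% and 18.6% of all genes. Vegfa, which drives vessel growth, was among the 3 that rose. Vegfa had 9.51 and 9.48 in DEN macrophages, against 7.51 and 7.47 in untreated macrophages (2.01 ± 0.05). Among co-stimulatory and checkpoint genes 6 of 17 rose and 6 fell. The largest fall of this list was Vsig4 (-5.00), also a Kupffer cell marker. The ligand Cd274 (PD-L1) had 10.64 and 10.51 in DEN macrophages, against 10.11 and 9.92 in untreated macrophages (0.56 ± 0.09), Havcr2 (TIM-3) rose (1.11), and the phagocytosis brake Sirpa (-0.86) and its ligand Cd47 (-0.96) fell.

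Glycolysis genes rose more often than all genes did. Respiratory chain genes passed about as often as all genes in total, but mostly as lower. Of 21 glycolysis and hypoxia genes 13 rose and 2 fell (median 0.48). The glucose transporter Slc2a3 had 10.91 and 10.91 in DEN macrophages, against 9.03 and 9.06 in untreated macrophages (1.86 ± 0.07), and Slc2a1 (1.35) and pyruvate kinase Pkm (1.34) rose. The hexokinase Hk3 fell (-1.88), and Ldha (0.13 ± 0.05) and Hif1a (0.06 ± 0.06) did not pass. Of 26 respiratory chain genes 10 fell and 1 rose (median -0.16), against 24.3% and 18.6% of all genes. Cox5a at -1.42 ± 0.07 and Uqcrq at 1.26 ± 0.06 were the extremes. Of 24 antioxidant genes 14 fell and 5 rose. The glutathione peroxidases Gpx3 (-1.86) and Gpx1 (-1.56) fell, and the cystine transporter Slc7a11 (1.50) rose.

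Cell cycle and p53 target genes rose more often than they fell, mostly by little. Of 32 cell cycle genes 14 rose and 2 fell (median 0.16). The mitotic genes Cdk1 (-0.06 ± 0.11) and Top2a (0.24 ± 0.10) did not pass, and the largest rises were the stress-induced kinase Plk3 (2.70) and the cell cycle inhibitor Cdkn1a. Cdkn1a had 10.05 and 9.98 in DEN macrophages, against 8.39 and 8.33 in untreated macrophages (1.66 ± 0.06). Of 18 p53 targets, a list that also holds Plk3 and Cdkn1a, 8 rose and 3 fell, with Gadd45a (2.30) and Fas (0.94) among the higher. Mdm2, which p53 itself induces, was at 0.23 ± 0.09 (adjusted p = 0.0626), and Phlda3 (-0.03 ± 0.07) and Zmat3 (-0.14 ± 0.13) did not pass either.

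The DEN change of macrophages was next set against that of SEC, the other preparation from the sinusoids, whose arrays are separate from the macrophage arrays. In SEC 443 genes passed, with 2.56% of all genes higher and 0.995% lower, and the change differed between macrophages and SEC for 4111 genes, 33.0% of those tested (limma interaction). Of the 359 genes at least 2-fold higher in macrophages 55 also rose in SEC and 352 differed. Of the 464 genes at least 2-fold lower in macrophages 20 also fell in SEC, 26 rose there, and all 464 differed. Both sets were chosen by the macrophage change, which is also part of the difference, so how many differed follows largely from that choice. The Kupffer cell markers, present in SEC too, had a median SEC change of -0.09, and each of the 14 changed differently in macrophages. Clec4f had 13.16 and 13.13 in DEN SEC, against 13.44 and 13.35 in untreated SEC (-0.25 ± 0.07), and the difference of the macrophage change from it was -5.07 ± 0.09 (adjusted p = 7.15e-11). Cxcl2 rose in SEC as well, with 9.52 and 9.61 in DEN SEC, against 7.45 and 7.44 in untreated SEC (2.12 ± 0.06), and the macrophage change exceeded it by 4.00 ± 0.08. Saa3 (4.80 ± 0.08), Hdc (4.58 ± 0.07), Cma2 (4.51 ± 0.11) and G0s2 (4.51 ± 0.14) had the largest differences above the SEC change. The largest below it were Mup2 (-5.37 ± 0.11), Mup6 (-5.25 ± 0.13), the mitochondrial gene ND4L (-5.21 ± 0.27) and Cd163 (-5.12 ± 0.16). Mup2 had 8.97 and 9.16 in DEN macrophages, against 13.59 and 13.52 in untreated macrophages, while DEN SEC had 14.25 and 14.43 and untreated SEC 13.46 and 13.47. Over the hepatocyte list 8 of 19 fell in macrophages and 9 rose in SEC, and globins rose far more in SEC, with Hbb-bs at 5.08 ± 0.14 there and 0.79 ± 0.14 in macrophages.

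**Figure D4:**
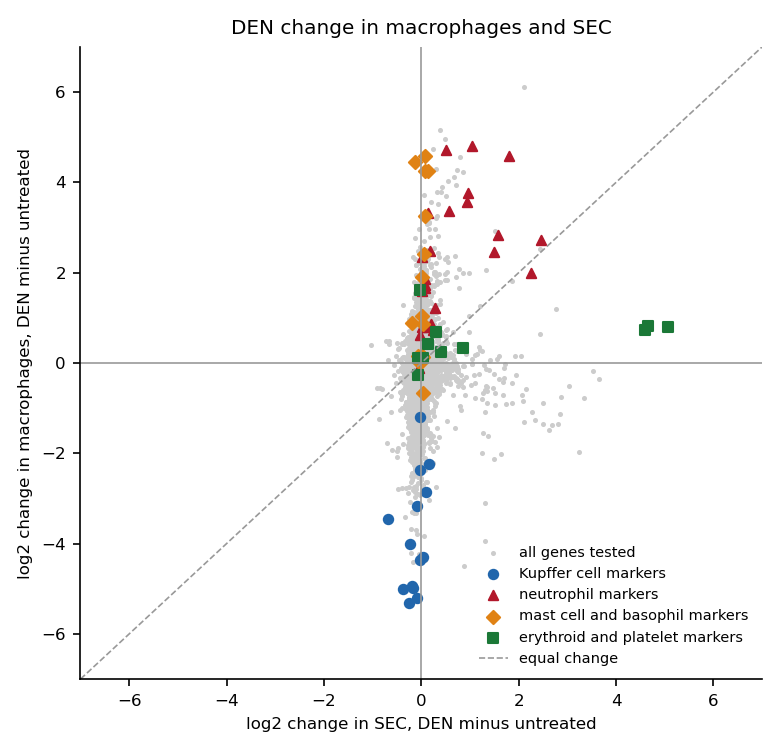
Log2 change, DEN minus untreated, in macrophages (y axis) against SEC (x axis) for all 12462 genes tested (grey), with 4 marker lists in colour and a dashed line of equal change. Kupffer cell and mast cell markers spread along the macrophage axis near an SEC change of 0, while the globins lie far to the right with SEC changes of 4.59 to 5.08.

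The macrophage and hepatocyte changes differed for 7851 genes, 63.0% of those tested, 4019 above the hepatocyte change and 3832 below it. With each array centred on the median of its genes above background the split was 5477 above and 3107 below. Hepatocytes had 8433 passing genes, and 299 of the 359 genes at least 2-fold higher in macrophages also rose there and 27 fell. Of the 464 lower genes 115 also fell there and 251 rose. Over all genes 31.7% rose and 36.0% fell in hepatocytes. Gpnmb and Hdc rose in both, with 4.30 ± 0.07 and 4.46 ± 0.05 in macrophages and 4.38 ± 0.07 and 4.62 ± 0.05 in hepatocytes. Their differences were -0.08 ± 0.09 (adjusted p = 0.466) and -0.16 ± 0.07 (adjusted p = 0.0747), which did not pass. The shared rises included leukocyte genes, and the neutrophil markers summed to 53490 and 53133 on the DEN hepatocyte arrays and 10569 and 10241 on the untreated ones. Adgre1, which fell in macrophages (-2.36 ± 0.06), rose in hepatocytes (3.59 ± 0.06), a difference of -5.95 ± 0.08. The properdin gene Cfp (-5.52 ± 0.07), Vsig4 (-5.51 ± 0.08), Gbp2b (-5.49 ± 0.09) and the syndecan Sdc3 (-5.42 ± 0.13) were among the other largest differences below the hepatocyte change, with Dcn (-6.30 ± 0.18) and the globins. On the other side G0s2 (6.61 ± 0.14) rose in macrophages and fell in hepatocytes (-1.87 ± 0.10). Most of the remaining largest differences, such as those of Car3 and Cyp4a12a, came from hepatocyte genes at or near background in macrophages, with changes there of -0.21 ± 0.20 and -0.12 ± 0.06.

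**Figure D5:**
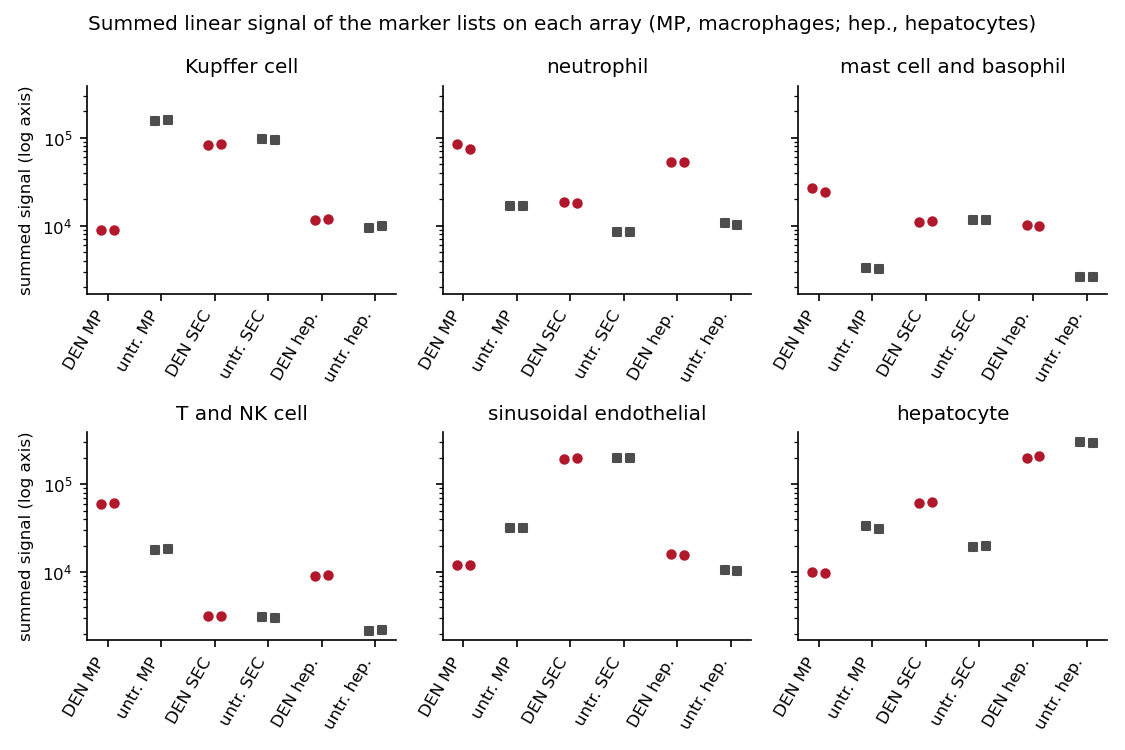
Summed linear signal (y axis, log scale) of 6 marker lists on each of the 12 arrays, with DEN arrays as circles and untreated arrays as squares. The Kupffer cell sum of DEN macrophages (8873 and 9003) lies below that of DEN SEC (82790 and 83686), and the T and NK cell sum is highest in DEN macrophages (59044 and 60409).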

How the data were processed

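RNA of DEN and untreated macrophages, SEC and hepatocytes was measured on 12 Illumina arrays, 2 per group. The values the authors deposited are on a log2 scale, as read from the values, and came from lumi, which the submitters' processing notes name. The sources used here give neither its version nor its transform or normalization, and the near-identical distributions of the arrays (minimum 7.19, median 7.41, maximum 15.19) can compress changes of dim and of bright probes. Of the deposited raw signals, 12 columns could not be tied to a sample and were not used.

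Probe names came from the RefSeq genes of assembly GRCm38.p6 by way of the platform annotation, which can be old. Of 45281 probes 34885 had 1 symbol, 18 several and 10378 none. Background was the level under which 95% of 1501 olfactory and vomeronasal receptor probes lay on an array, and kept probes exceeded it on both arrays of at least 1 group. Each gene was represented by its brightest kept probe on average over the 12 arrays. limma 3.58.1 in R 4.3.3 fitted 6 group means (lmFit, eBayes, 6 residual degrees of freedom), two-sided, with Benjamini-Hochberg adjustment over 12462 genes at 0.05, and interactions as contrasts. The number of arrays limits the precision, and the median SE of a macrophage change was 0.07. Where both arrays of the lower group were below background, the fold is a lower bound.

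The macrophage comparison, the gene lists and the marker lists were chosen with earlier results of these data known, so their counts are descriptions and no list was tested as a set. Named genes are the 20 largest passing rises and falls above background in the higher group without predicted gene models, members of the lists whether they passed or not, and the 10 largest interaction differences in each direction. Csf1r and Laptm5 lie outside that rule. Alternatives varied the arrays in the fit, a block for replicate number, the spread, scaling, background, the filter, the probe per gene, the size of change and single arrays left out. Promoter sequences are from RefSeq. Figures were drawn with matplotlib 3.10.9.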

Additional observations from a re-analysis of the deposited data

Results flagged for a closer look

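The DEN change differed between macrophages and SEC for 4111 genes (limma interaction, adjusted p under 0.05), 1911 of them above and 2200 below the SEC change. It differed between macrophages and hepatocytes for 7851 genes, 4019 above and 3832 below. Among the Kupffer cell markers all 14 measured changed differently in macrophages and in SEC, with medians of -4.15 and -0.09. Among the neutrophil markers 21 of 24 did, with medians of 2.17 in macrophages and 0.23 in SEC.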

How the results depend on the processing

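The count of 5353 genes that passed stayed within 1.5 times under each alternative but one, from 4924 with background subtracted to 6039 with the 4 macrophage arrays alone. It was 4358 to 4554 with 1 macrophage array left out, where the lone array is assumed to vary like the other groups. Tested for a change of at least 2-fold (limma treat), 552 genes passed, 242 higher and 310 lower. The SEC difference then held for 467 genes (181 above and 286 below), the hepatocyte difference for 1652 (641 above and 1011 below), and the members of lists that passed numbered 199, against 556. Of 283 named genes 243 passed, and 72 of these did not pass at 2-fold. In 17 genes a call was lost under some other alternative, 16 of them with background subtracted, which moved the median of all genes to -0.11, against -0.02, and the last, Fth1, with the mean of a gene's probes. Direction and call stayed as they were for 180 genes under every alternative run. The lists' counts stayed within 1.5 times in 1506 of 1632 cases. Cyclic loess gave 2691 higher and 2611 lower genes, against 2323 and 3030.

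The labels number the replicates alike in each group. Deviations of same-numbered DEN and untreated arrays from their group means correlated at -0.04 in macrophages, 0.03 in SEC and 0.01 in hepatocytes. No deviation common to same-numbered arrays was seen across genes. Whether such arrays share more than a number is not given in the labels, and these correlations cannot show it. With a replicate block 5174 genes passed, 3943 differed from SEC and 7658 from hepatocytes.

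Without DEN array 1, Gbp2, H2-Aa, H2-Q7 and Icam1 lost their call, and without DEN array 2, Gbp2, H2-DMb2, H2-Q7 and Rela did. Without untreated array 1, H2-Aa, H2-Q7, Icam1 and Rela lost it, and without untreated array 2, Gbp2, H2-Aa, H2-DMb2, H2-Q7, Icam1 and Rela did.

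Directions turned for the called genes H2-DMb2 (0.447) and H2-Q7 (0.062) with the mean of a gene's probes, whose probes disagree. The others that turned had not passed. With the mean of probes Cd74 was at -0.19, Irgm1 at -0.163 and Cybb at 0.028. Centred on the median, Ccr3 was at 0.013, Col1a1 at 0.02, Ier2 at 0.015 and Laptm5 at 0.024. With cyclic loess Ier2 was at 0.045 and Pycard at 0.023. With 1 array left out Cd4 ranged from -0.042 to 0.088, Cdk1 from -0.143 to 0.022, Col1a1 from -0.038 to 0.023, Ctsb from -0.052 to 0.173 and Cybb from -0.073 to 0.001. Hspa5 ranged from -0.156 to 0.018, Ier2 from -0.071 to 0.046, Il6 from -0.125 to 0.001, Laptm5 from -0.05 to 0.043, Myc from -0.134 to 0.042 and Pycard from -0.093 to 0.016. The cause of the other turns was not tested. Signal over background limits what can be said of dim genes.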

Other observations

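Other gene lists were mixed in DEN macrophages, where 18.6% of all genes rose and 24.3% fell. Of 21 acute phase genes 5 rose and 9 fell in macrophages, while 17 rose in SEC. The hepatocyte-made Saa1 (0.06 ± 0.05) and Saa2 (-0.08 ± 0.06) did not pass in macrophages. Saa3 rose in macrophages and by more in hepatocytes (6.125 ± 0.053). The fibrinogen chains Fga (-1.27) and Fgg (-1.31) fell in macrophages. Sphingolipid and purine receptors were mixed, with the lower P2ry13 at 8.85 and 8.81 in DEN macrophages, against 11.62 and 11.63 in untreated macrophages (-2.80 ± 0.05) and P2ry12 at -2.09 ± 0.08, while the oxysterol receptor Gpr183 rose (1.39 ± 0.07). Over that list 6 of 16 rose and 7 fell.

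Of 12 clock genes 5 rose and 1 fell, with Per1 at 10.27 and 10.27 in DEN macrophages, against 8.26 and 8.26 in untreated macrophages (2.01 ± 0.08) and Nr1d1 (-0.09 ± 0.10) not passing. Glucocorticoid targets divided, 5 higher and 5 lower of 14, with Ddit4 (1.74) and Tsc22d3 (0.80) higher and Fkbp5 (-0.71) lower. Of 8 phagocyte oxidase genes 2 rose and 2 fell, and the catalytic subunit Cybb was at -0.04 ± 0.05 and did not pass.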
